A study of Mus musculus with 9 samples.

Results

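Cholesterol and fatty acid synthesis was followed through 40 genes in the first-molar enamel organs of mice raised under early life adversity (ELA) and of control mice. The genes were taken by name from the deposited table of 54532 genes, for their place in mevalonate and sterol synthesis, its control, lipogenesis and sterol transport, and each of the 40 names matched 1 row. RNA was sequenced from 5 ELA and 4 control male pups at postnatal day 12, with 1 library per mouse. ELA litters were kept with sparse bedding and nesting material from postnatal day 2 to 12, and control litters in standard cages. Pups of both groups were C57BL/6 offspring of Crh-IRES-Cre dams and Ai14 tdTomato males, so the control mice carry both alleles too. The methods of the study give a lower mean body weight for the ELA pups. The study states that its lightest ELA mice were left out of later analyses, and calls the controls weight-matched. Mice are called ELA 1 to 5 and control 1 to 4 in the order of the labels. Sample titles carry a number that is the same for ELA 1 and 2, for ELA 3 to 5, for control 1 and 2, and for control 3 and 4. The labels do not say what it means. For qPCR of enamel organs, the methods of the study describe the same numbers, 5 ELA and 4 control male pups, from a pair of litters per group. They do not say whether these are the mice sequenced. If mice with a shared number are littermates, p-values over mice are too small, which was not tested.

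Cells build cholesterol from acetyl-CoA through mevalonate, isoprenoids and squalene, and build fatty acids from the same precursor through citrate and malonyl-CoA. The transcription factors SREBP1 and SREBP2 (genes Srebf1 and Srebf2) drive the enzymes of both routes when membrane sterol is low. INSIG proteins hold them back in the endoplasmic reticulum together with SCAP. The liver X receptors (LXR) respond to oxidized sterols and raise cholesterol export. Ameloblasts, the secretory epithelium of the enamel organ, have a large endoplasmic reticulum and Golgi apparatus, membranes that need both kinds of lipid.

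Library totals were 18056774 to 32110160 counts in ELA and 18683431 to 20831736 in control mice. Levels are given as CPM, a gene's counts relative to the library size, after TMM scaling, which corrects library sizes for a few very abundant transcripts, and as FPKM (CPM per kilobase of gene length) where genes are compared with each other. The secretory-stage ameloblast markers Amelx, Ambn, Enam and Mmp20 summed to between 71270 and 129800 CPM per ELA mouse and between 50290 and 64510 CPM per control mouse, with a positive log2 fold change in 4 of 4. Maturation-stage markers overlapped between the groups, at 24400 to 42840 CPM and 29850 to 41480 CPM. The 7 markers of dental mesenchyme had a negative log2 fold change in 7 of 7 and summed to between 11920 and 23270 CPM per ELA mouse and between 15570 and 30870 CPM per control mouse. The 8 neuron and myelin markers summed to 384.5 CPM in ELA 4 and to at most 129.1 CPM in any other mouse. Macrophage markers overlapped between the groups (192.3 to 260.2 and 193.9 to 264.8 CPM). Adipocyte markers summed to at most 1.73 CPM in any mouse, with Adipoq at 0 in every ELA mouse and Lep at 0 in every mouse, and the sebaceous markers apart from Soat1, which many tissues express, reached at most 1.85 CPM each. In whole tissue, fewer cells of a type and less RNA per cell cannot be told apart, and the part of these shifts in the values that follow was not tested.

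All 40 genes passed the filter on low counts. The order of levels per length in the control mice began with Scd2, a stearoyl-CoA desaturase, at 79.2 ± 11.8 FPKM (SD, n = 4), and Npc2, a lysosomal cholesterol carrier, at 50.9 ± 6.26 FPKM. Hmgcs1 (HMG-CoA synthase) at 35.3 ± 3.35 FPKM, Acly (ATP citrate lyase) at 34.5 ± 1.60 FPKM, Sqle (squalene epoxidase) at 32.4 ± 6.15 FPKM and the LXR gene Nr1h2 at 31.0 ± 1.75 FPKM followed, and within these names neighbours in the order differed by less than the larger of their SDs. At the low end, Nr1h3, the other LXR gene, was at 0.724 ± 0.214 FPKM and Fdps (farnesyl diphosphate synthase) at 0.472 ± 0.0906 FPKM. Fdps was at 1.42 to 4.94 CPM over the 9 mice, and since the mouse genome is known to hold pseudogene copies of it, its level is uncertain. The genes between ran from Cyp51 at 28.7 FPKM to Tm7sf2 at 1.36 FPKM. Within the pairs of related genes, Scd2 stood above Scd1 and Nr1h2 above Nr1h3 in every mouse, whereas the means of Srebf2 (25.0 ± 3.33 FPKM) and Srebf1 (20.2 ± 3.12 FPKM) lay close together.

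**Figure D1:**
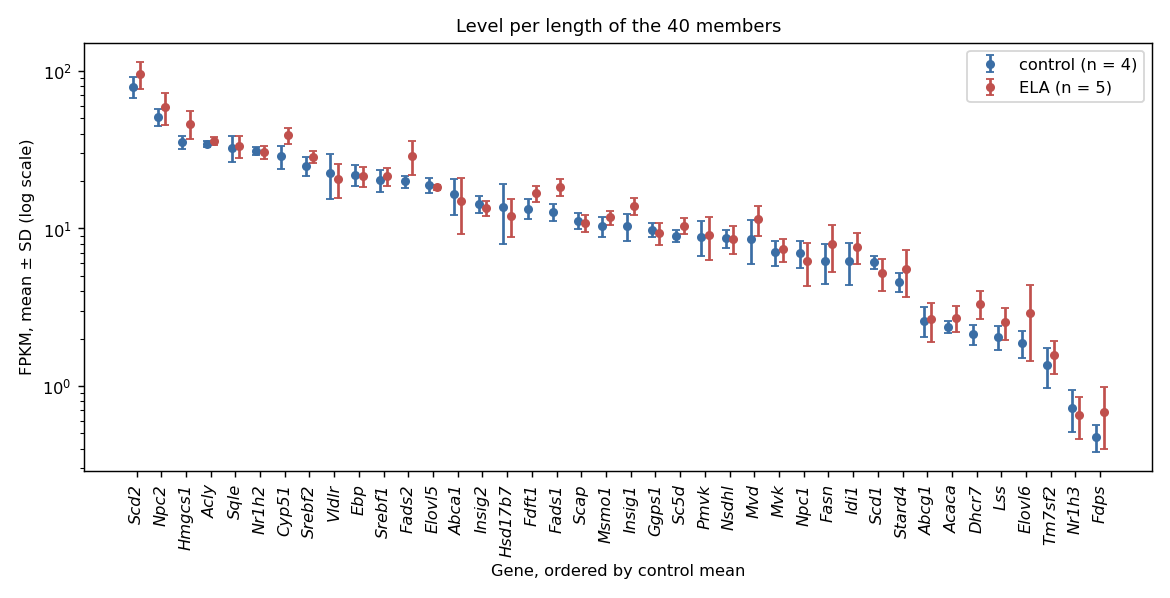
Level per length of the 40 genes in FPKM on a log scale (vertical axis), with the mean and SD of 4 control and 5 ELA mice, ordered by the control mean. Scd2 at 79.2 FPKM leads the control order and Fdps at 0.472 FPKM ends it, and the SD bars of the groups overlap for all genes but Cyp51, Dhcr7, Fads1 and Fads2.

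Promoters are shown for the 4 genes with an unadjusted p below 0.05 whose RefSeq window leaves most of its 250 bases ahead of every annotated start used here. RefSeq promoters on GRCm38.p6 were matched by symbol for 31 of the 40 genes, with the start nearest to that of the deposited gene. The 250 bases before the start were searched on both strands for the sterol regulatory element TCACNCCAC, the CCAAT box bound by NF-Y (a factor known to act beside SREBP), the E-box CACGTG and the GC box GGGCGG, and every match is in capitals. No match of these motifs overlaps another in the sequences shown, and bases after an annotated start are left off.
Hmgcs1: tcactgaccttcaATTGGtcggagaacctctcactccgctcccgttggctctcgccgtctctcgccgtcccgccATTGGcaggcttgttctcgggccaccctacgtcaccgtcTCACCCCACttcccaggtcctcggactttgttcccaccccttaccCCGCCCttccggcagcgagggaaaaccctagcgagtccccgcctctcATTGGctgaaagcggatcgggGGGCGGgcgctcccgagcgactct
Cyp51: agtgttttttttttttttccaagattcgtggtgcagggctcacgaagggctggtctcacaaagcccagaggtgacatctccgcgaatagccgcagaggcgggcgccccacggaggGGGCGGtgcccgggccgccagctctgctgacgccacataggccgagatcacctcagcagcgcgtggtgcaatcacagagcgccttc
Dhcr7: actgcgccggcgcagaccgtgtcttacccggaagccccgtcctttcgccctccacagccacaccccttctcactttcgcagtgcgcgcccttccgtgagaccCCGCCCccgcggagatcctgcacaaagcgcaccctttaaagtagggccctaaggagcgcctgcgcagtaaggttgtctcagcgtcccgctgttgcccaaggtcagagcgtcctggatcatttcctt
Insig1: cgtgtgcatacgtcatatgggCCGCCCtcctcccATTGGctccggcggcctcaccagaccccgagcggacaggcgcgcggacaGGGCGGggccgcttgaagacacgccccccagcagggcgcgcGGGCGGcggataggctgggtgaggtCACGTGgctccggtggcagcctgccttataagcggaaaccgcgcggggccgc
These are chr13:119690101-119690350 (plus strand), chr5:4104747-4104947 (minus), chr7:143822917-143823144 (plus) and chr5:28071162-28071362 (plus). The sterol regulatory element was found in 1 of 31 promoters, that of Hmgcs1, 137 to 129 bases before the start, and in 1.05% of all 32851 promoters of the same length. The CCAAT box was in 21 of 31 (67.7%), among them 14 of the 15 sterol and isoprenoid enzymes with a promoter, against 33.8% of all promoters. That of Cyp51 lies 29 to 25 bases before the RefSeq start, in the stretch left off. The E-box was in 5 of 31, including Insig1, against 6.02% of all, and the GC box in 19 of 31 against 32.7% of all. A match describes letters and is not a bound site.

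ELA was compared with control by edgeR's quasi-likelihood test over 15909 genes, with Benjamini-Hochberg adjusted p-values. None of the 40 genes passed an adjusted p of 0.05 in edgeR, where 0.0629% of all genes tested passed. The lowest adjusted p among the 40 was 0.255 in edgeR, 0.0764 in DESeq2 (0.718% of the genes with an adjusted p passed there) and 0.262 in limma-voom, each for Fads1. At an unadjusted edgeR p below 0.05, 7 genes were higher in ELA and 0 were lower, 17.5% of the 40 beside 3.56% of all genes tested (2.89% were lower). DESeq2 gave 8 higher and 0 lower, beside 724 and 574 of 30394 genes. In limma-voom 7 were higher and 0 lower, beside 483 and 524 of 15909 genes. The 7 were Hmgcs1, Fdft1, Cyp51, Dhcr7, Insig1, Fads1 and Fads2. Of the 40 genes, 27 (67.5%) had a positive log2 fold change, beside 52.6% of all genes, and the median was 0.18 beside 0.01. Every ELA mouse lay above every control mouse for 5 genes, Cyp51, Dhcr7, Insig1, Fads1 and Fads2, 12.5% of the 40 beside 1.39% of all genes tested. No gene of the 40 had every ELA mouse below every control mouse, beside 1.29% of all. Without ELA 4, control 1 or control 2, 5 genes were higher and 0 lower at the unadjusted p. Of 15687 genes, 430 were higher and 472 lower without ELA 4. The same counts were 543 and 364 of 16232 without control 1, and 366 and 323 of 16209 without control 2. Without ELA 1 there were 9 higher and 2 lower, beside 672 and 528 of 15790 genes. The 2 were Npc1 and Abca1, both of which had their highest CPM in ELA 1.

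**Figure D2:**
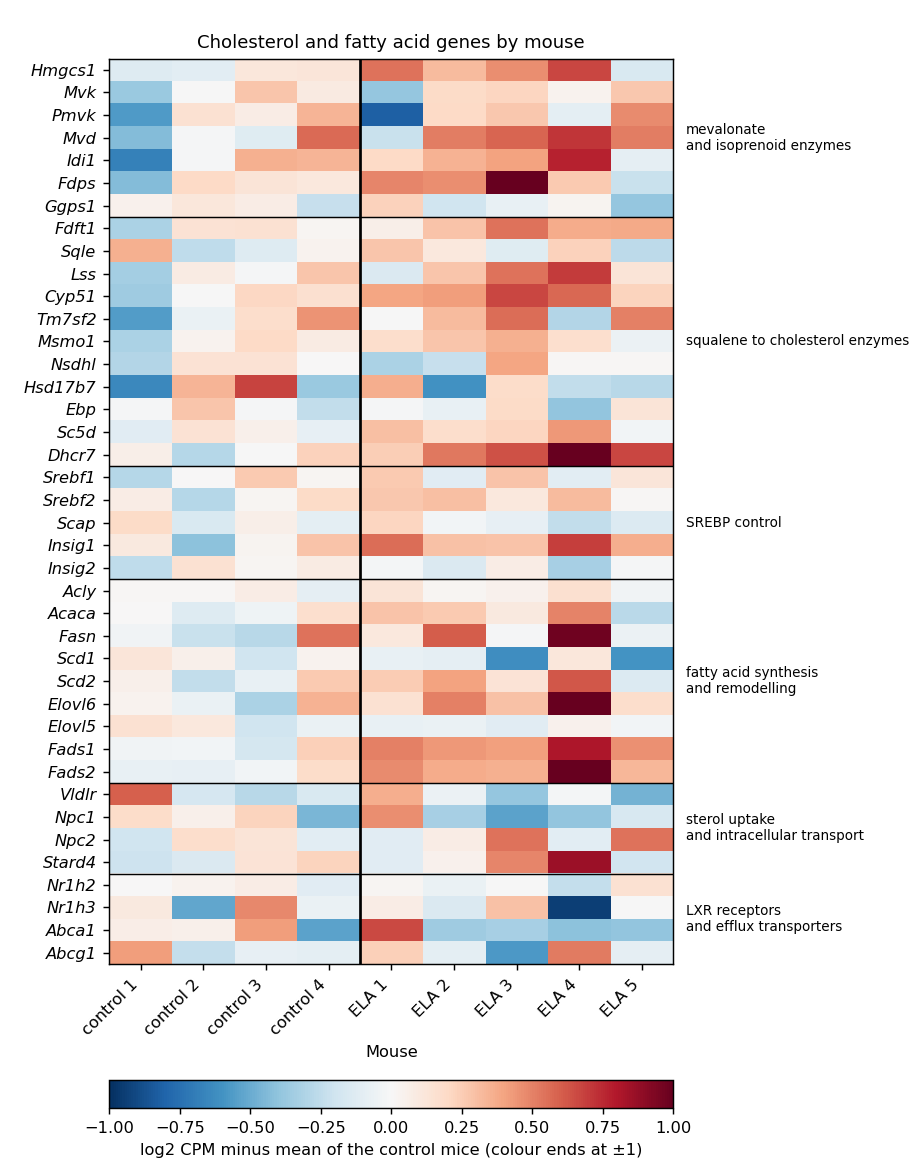
Log2 CPM of each of the 40 genes (rows, by role) in each mouse (columns) minus the mean of the 4 control mice, with red above and blue below that mean and colours ending at 1. ELA 4 has the highest CPM of 17 of the 40 genes, and control 1 the lowest of 13.

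The early enzymes that make mevalonate and isoprenoids had a median log2 fold change of 0.30, with 6 of 7 positive. Hmgcs1, on chromosome 13 from 119690379 to 119708260 (GRCm38), makes HMG-CoA, the precursor of mevalonate. It was at 236.2, 201.9, 223.3, 257.1 and 145.4 CPM in ELA 1 to 5 and at 147.6, 150.5, 175.4 and 175.8 CPM in control 1 to 4. ELA 1 to 4 lie above the controls and ELA 5 lies below each of them, so the groups overlapped. The log2 fold change was 0.39 (standard error, SE, 0.166, unadjusted p = 0.037, edgeR adjusted p = 0.714), and 4 of 9 fits that each left out 1 mouse had an unadjusted p below 0.05. Its promoter is the one above that holds the sterol regulatory element. Mvd, which decarboxylates mevalonate diphosphate, was at 13.2, 22.1, 23.3, 25.5 and 22.1 CPM in ELA 1 to 5 and 11.4, 15.3, 14.3 and 23.0 CPM in control 1 to 4. ELA 1 lay among the controls and control 4 among the ELA mice, and the log2 fold change was 0.41 (SE 0.228, edgeR adjusted p = 0.853), or 0.64 without control 4. Idi1 (isopentenyl diphosphate isomerase) and Fdps had log2 fold changes of 0.30 and 0.54, and Mvk, Pmvk and Ggps1 of 0.06, 0.03 and -0.07, none of the 5 with an unadjusted p below 0.05. Leaving out single mice moved Idi1 to 0.12 without control 1 and 0.17 without ELA 4, and Fdps to 0.26 without ELA 3. The signs of Mvk (-0.04 to 0.17), Pmvk (-0.13 to 0.19) and Ggps1 (-0.15 to 0.0015) changed with the mouse left out. The median of the 7 enzymes was 0.12 without control 1, which had the lowest CPM of 10 of the 18 enzymes from Hmgcs1 to cholesterol, and 0.17 without ELA 4.

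The enzymes from squalene to cholesterol had a median log2 fold change of 0.21, with 8 of 11 positive and 3 of 11 at an unadjusted p below 0.05. Fdft1, squalene synthase, makes the first intermediate committed to sterols. It was at 58.3, 68.2, 81.8, 72.3 and 72.9 CPM in ELA 1 to 5 and 44.8, 62.0, 62.2 and 56.7 CPM in control 1 to 4. ELA 1 lay within the control range and the other four ELA mice above it, a log2 fold change of 0.32 (SE 0.137, unadjusted p = 0.0355, edgeR adjusted p = 0.712), and it kept an unadjusted p below 0.05 in 3 of the 9 leave-one-out comparisons. Fdft1 overlaps Ctsb on the other strand, whose 213939 counts over all mice stand beside 12462 for Fdft1, and the strand setting of the counting is not known. Cyp51, lanosterol demethylase, on chromosome 5 from 4081145 to 4104746, was at 164.2, 167.0, 198.7, 185.9 and 145.8 CPM in ELA 1 to 5 and 97.7, 124.5, 144.2 and 139.8 CPM in control 1 to 4. The groups did not overlap, with ELA 5 next to control 3. The log2 fold change was 0.45 (SE 0.149, unadjusted p = 0.0113, edgeR adjusted p = 0.552), and 9 of 9 fits without 1 mouse kept an unadjusted p below 0.05. Cyp51 overlaps Akap9 on the other strand, with 29084 counts for Cyp51 and 19358 for Akap9.

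Dhcr7 makes the last double-bond reduction to cholesterol and had, with Elovl6, one of the largest log2 fold changes of the 40 genes. The order of this pair changed with the mouse left out. It lies on chromosome 7 from 143823145 to 143848410 and was at 14.7, 17.8, 19.2, 25.5 and 19.7 CPM in ELA 1 to 5. The control mice were at 12.8, 10.1, 12.3 and 14.5 CPM, so the groups did not overlap, and ELA 1 was next to control 4. The log2 fold change was 0.64 (SE 0.177, unadjusted p = 0.0036, edgeR adjusted p = 0.375), and it was 0.52 without ELA 4. The other enzymes of this stretch, Sqle, Lss, Tm7sf2, Msmo1, Nsdhl, Hsd17b7, Ebp and Sc5d, had log2 fold changes of -0.17 (Hsd17b7) to 0.32 (Lss) and no unadjusted p below 0.05. That of Lss was 0.21 without ELA 4 and that of Hsd17b7 was 0.09 without control 3. Sqle, which makes the epoxide of squalene and is a known control point of the pathway, averaged 185.0 ± 28.8 CPM over the ELA mice (SD, n = 5) and 179.8 ± 34.1 CPM over the controls (n = 4), with its highest value in control 1. The median of the 11 enzymes was 0.14 without ELA 3, and 0.17 without control 1.

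**Figure D3:**
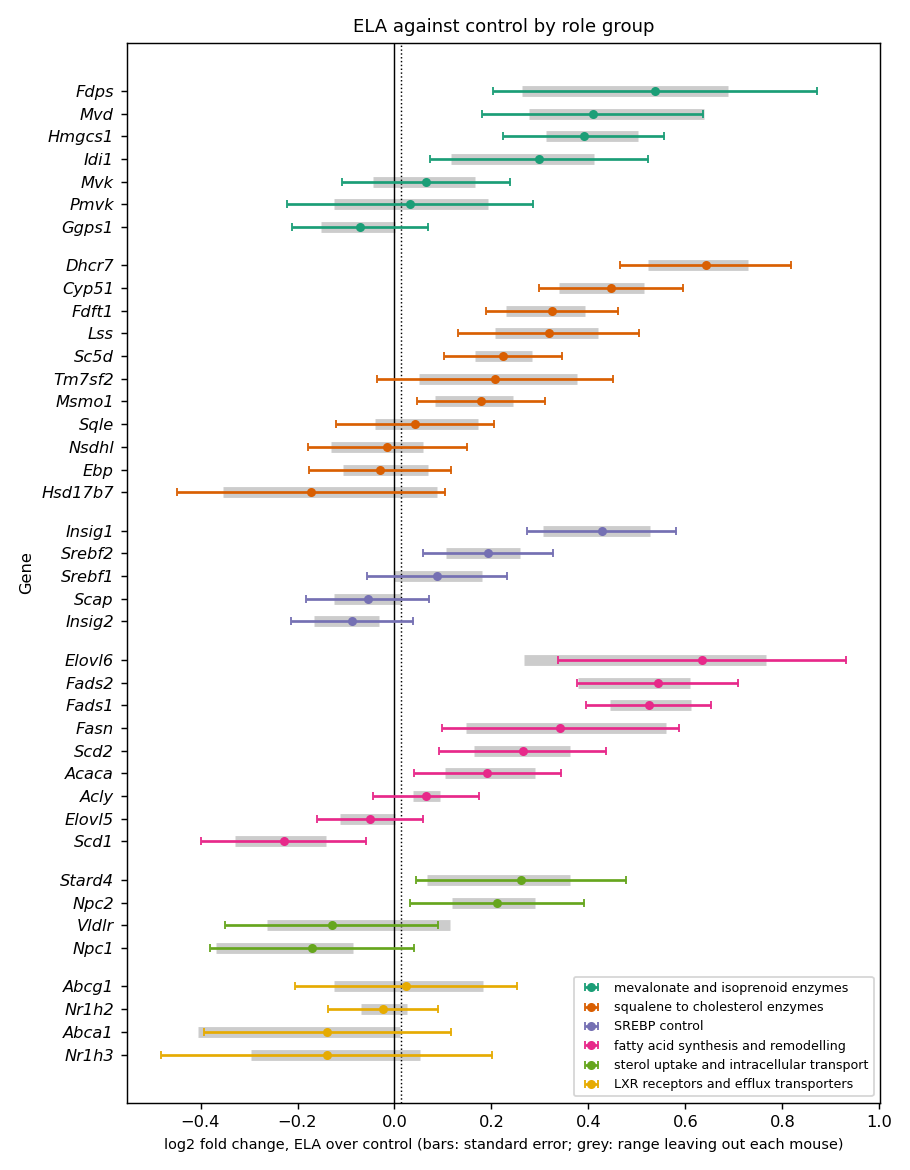
Log2 fold change of ELA over control for the 40 genes by role (points), with the standard error (bars) and the range over fits that left out each mouse (grey). The dotted line is the median of all genes tested at 0.01, and Dhcr7 at 0.64 and Elovl6 at 0.63 stand farthest right, the latter with a wide range down to 0.27.

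Of the SREBP control genes, Insig1, the sterol-responsive INSIG gene, was the one at an unadjusted p below 0.05. Insig1, on chromosome 5 from 28071363 to 28078662, was at 46.3, 38.7, 38.5, 51.0 and 40.5 CPM in ELA 1 to 5 and at 33.7, 23.7, 32.1 and 38.4 CPM in control 1 to 4. The groups did not overlap, though ELA 3 and control 4 were close to equal. The log2 fold change was 0.43 (SE 0.154, unadjusted p = 0.0172, edgeR adjusted p = 0.613), and the unadjusted p was 0.0551 in the edgeR fit without control 2. Insig2, its relative, was at 48.8, 44.8, 52.2, 39.3 and 49.0 CPM in ELA 1 to 5 and 41.4, 55.1, 50.0 and 52.4 CPM in control 1 to 4, overlapping groups with a log2 fold change of -0.09 (SE 0.126).

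The SREBP genes themselves overlapped between the groups. Srebf2, which drives sterol enzymes, was at 214.7, 219.2, 191.5, 221.7 and 179.4 CPM in ELA 1 to 5 and 187.9, 146.6, 180.7 and 203.2 CPM in control 1 to 4. Its log2 fold change was 0.19 (SE 0.133, edgeR adjusted p = 0.931), with ELA 3 and ELA 5 inside the control range, and was 0.11 without control 2. Srebf1, which drives fatty acid synthesis, was at 135.5, 104.3, 137.6, 105.0 and 122.6 CPM in ELA 1 to 5 and 92.5, 113.3, 135.5 and 114.4 CPM in control 1 to 4. Its log2 fold change was 0.09 (SE 0.144), and it overlaps Rai1 on the other strand. Scap, the sterol sensor that escorts the SREBPs, had a log2 fold change of -0.06. The median of the 5 SREBP control genes was 0.09, and it was 0.01 without control 1 and 0.18 without control 3. These transcripts say nothing of how much SREBP protein was cut and in the nucleus.

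**Figure D4:**
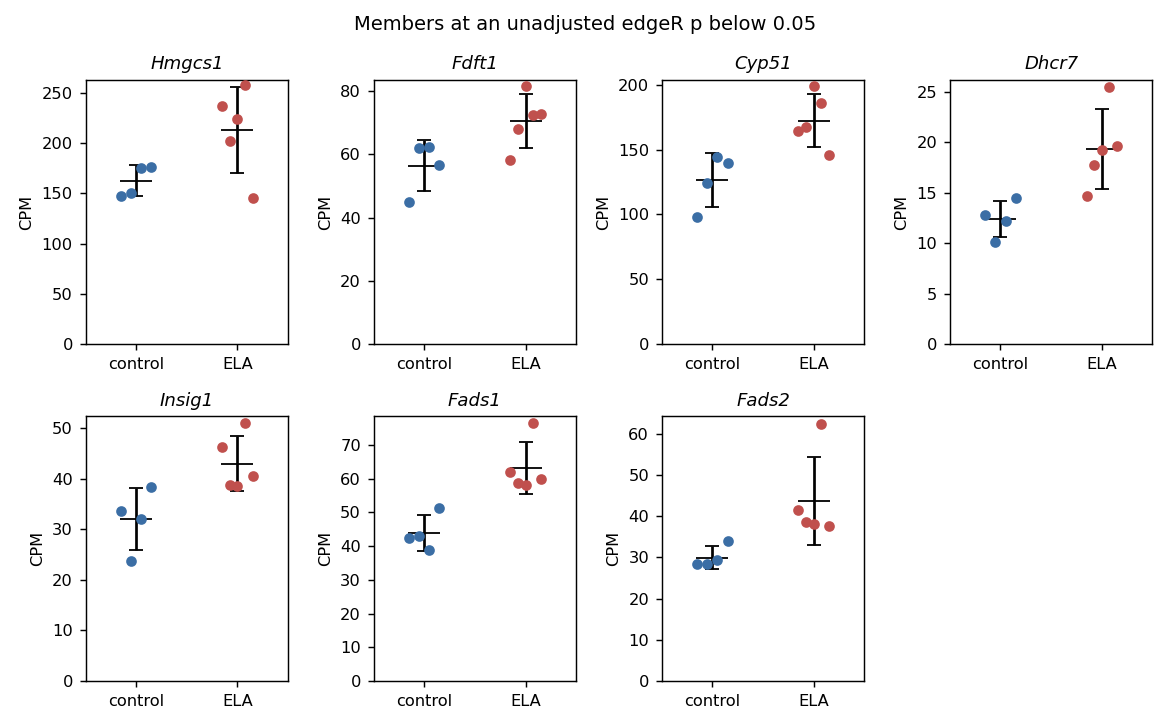
CPM (vertical axes, from 0) of the 7 genes at an unadjusted edgeR p below 0.05 in each of 4 control and 5 ELA mice, with the mean and SD in black. The groups do not overlap for Cyp51, Dhcr7, Insig1, Fads1 and Fads2, and ELA 5 is at 145.4 CPM for Hmgcs1.

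Fatty acid synthesis and remodelling had a median log2 fold change of 0.26, with 7 of 9 positive, and the desaturases Fads1 and Fads2 had its smallest p-values. Fads1, the delta-5 desaturase of polyunsaturated fatty acids, on chromosome 19 from 10182888 to 10196870, was at 62.0, 58.9, 58.1, 76.6 and 60.1 CPM in ELA 1 to 5. The control mice were at 42.5, 42.9, 38.7 and 51.4 CPM, so each ELA mouse was above each control mouse. The log2 fold change was 0.52 (SE 0.128, unadjusted p = 0.00159, edgeR adjusted p = 0.255). Fads2, the delta-6 desaturase, on the same chromosome from 10064164 to 10101503 (for both genes as deposited, where GENCODE M21 differs), was at 41.5, 38.6, 38.2, 62.5 and 37.6 CPM in ELA 1 to 5 and 28.4, 28.3, 29.3 and 33.9 CPM in control 1 to 4. ELA 4 stood above the other four ELA mice, which also lay above the controls, and the log2 fold change was 0.54 (SE 0.166, unadjusted p = 0.00681, edgeR adjusted p = 0.479). Without ELA 4 the log2 fold changes of Fads1 and Fads2 were 0.44 and 0.38, and both kept an unadjusted p below 0.05 in 9 of 9 fits without 1 mouse.

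The elongases and stearoyl-CoA desaturases did not share this separation. Elovl6, which extends palmitate, was at 13.2, 16.9, 14.5, 35.4 and 13.4 CPM in ELA 1 to 5 and 12.2, 11.3, 9.51 and 15.2 CPM in control 1 to 4. Its log2 fold change of 0.63 (SE 0.297, edgeR adjusted p = 0.798) was 0.27 without ELA 4. Elovl5, which extends polyunsaturated chains, was at 63.1, 63.3, 61.4, 68.3 and 65.2 CPM in ELA 1 to 5 and 73.6, 71.4, 57.8 and 63.4 CPM in control 1 to 4, with a log2 fold change of -0.05 (SE 0.108). Scd2, the desaturase form known from brain and young tissues, was at 510.6, 565.5, 471.6, 658.3 and 388.7 CPM in ELA 1 to 5 and 444.1, 362.2, 407.2 and 514.5 CPM in control 1 to 4. Scd1, the form known from liver, sebaceous gland and fat, was at 27.9, 27.6, 19.1, 31.8 and 19.4 CPM in ELA 1 to 5 and 31.9, 30.4, 25.5 and 30.0 CPM in control 1 to 4. Both overlapped between the groups, with log2 fold changes of 0.26 (SE 0.172) and -0.23 (SE 0.17). That of Scd2 was 0.16 without ELA 4, and that of Scd1 was -0.14 without ELA 3 or ELA 5. Reads of such close relatives can be hard to place.
Acly, Acaca and Fasn, the enzymes that make acetyl-CoA, malonyl-CoA and palmitate, had log2 fold changes of 0.07, 0.19 and 0.34, none with an unadjusted p below 0.05. Without ELA 4 those of Acaca and Fasn were 0.11 and 0.15, and they were 0.29 for Acaca without ELA 5 and 0.56 for Fasn without control 4. Fasn spread from 64.0 to 130.4 CPM over the ELA mice and from 54.7 to 96.8 CPM over the controls. ELA 4 had the highest CPM of 7 of the 9 fatty acid genes and is also the library with the neuron and myelin markers, and without it the median of the 9 genes was 0.15. The part of those other cells in the level of ELA 4 was not tested.

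Ratios within a mouse were compared for 7 pairs of related genes, a test chosen after the values were seen, by a two-sided exact permutation test over mice whose smallest possible p is 0.0159. The Scd2 to Scd1 ratio of FPKM was 16.2, 18.2, 21.9, 18.4 and 17.8 in ELA 1 to 5 and 12.4, 10.5, 14.2 and 15.2 in control 1 to 4. Each ELA mouse was above each control mouse, a log2 difference of 0.51 that gave an exact p = 0.0159 and did not pass over the 7 pairs (Benjamini-Hochberg p = 0.111, exact permutation test). With so few mice, a pair at the smallest possible p could not pass unless other pairs also had small p-values. The Insig1 to Insig2 ratio was 1.05 ± 0.242 in ELA and 0.735 ± 0.186 in control mice, and ELA 3 at 0.829 lay below control 1 at 0.914 (exact p = 0.0317, Benjamini-Hochberg p = 0.111). Its log2 difference of 0.53 was 0.34 without control 2, with an exact permutation p = 0.0714. The Elovl6 to Elovl5 ratio was 0.157 ± 0.0719 in ELA and 0.0996 ± 0.0209 in control mice (exact p = 0.0635, Benjamini-Hochberg p = 0.148). ELA 4 stood at 0.284 and the other ELA mice at 0.113 to 0.146, and the log2 difference of 0.59 was 0.35 without ELA 4. The Fads1 to Fads2 ratio was 0.643 ± 0.0624 in ELA and 0.638 ± 0.0409 in control mice, a log2 difference of 0.0061. For the ratios of Srebf1 to Srebf2, Nr1h3 to Nr1h2 and Abca1 to Abcg1 the log2 differences were -0.11, -0.13 and -0.17, with exact permutation p-values of 0.603 to 0.698.

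**Figure D5:**
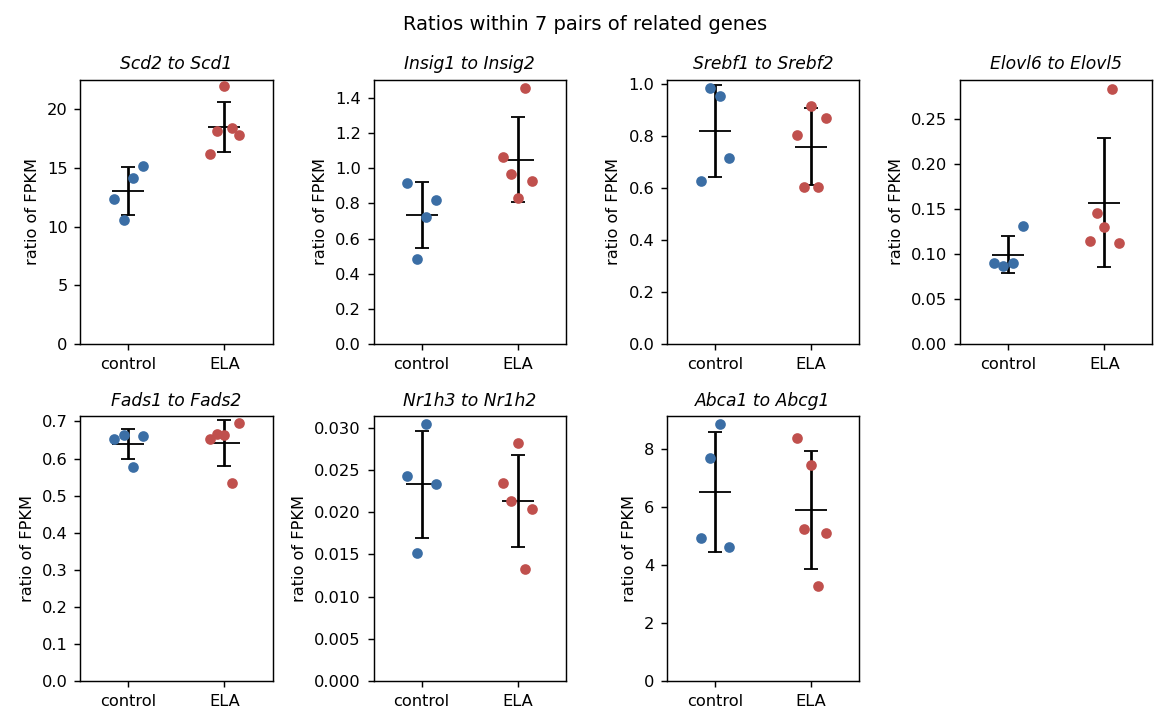
Ratio of FPKM (vertical axes, from 0) within 7 pairs of related genes in each of 4 control and 5 ELA mice, with the mean and SD in black. The Scd2 to Scd1 ratio is 16.2 or more in ELA and 15.2 or less in control mice, and the Fads1 to Fads2 ratios overlap.

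Sterol uptake and transport genes gave no unadjusted p below 0.05, and their median log2 fold change was 0.04. It was -0.02 without ELA 4, -0.01 without control 4 and 0.13 without control 1. Npc2, which hands cholesterol to NPC1 in the lysosome, was at 254.2, 289.4, 400.9, 256.3 and 402.1 CPM in ELA 1 to 5 and 240.3, 310.7, 300.4 and 256.0 CPM in control 1 to 4. ELA 3 and ELA 5 stood above the controls and the other ELA mice among them, a log2 fold change of 0.21 (SE 0.18, edgeR adjusted p = 0.968) that was 0.12 without ELA 3 and also without ELA 5. Stard4, a cytosolic sterol carrier, was at 23.5, 26.1, 35.6, 46.0 and 22.2 CPM in ELA 1 to 5 and 22.0, 23.0, 27.9 and 29.6 CPM in control 1 to 4, with a log2 fold change of 0.26 that was 0.07 without ELA 4. Npc1, the lysosomal export protein, and Vldlr, a lipoprotein receptor, had log2 fold changes of -0.17 and -0.13, and that of Npc1 was -0.37 without ELA 1. Vldlr was highest in control 1 at 332.4 CPM and next in ELA 1 at 282.1 CPM.

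The LXR genes and the efflux transporters had a median log2 fold change of -0.08, which was 0.01 without control 3, and overlapped between the groups. Nr1h2 (LXR beta) was at 105.4, 99.1, 103.3, 88.0 and 115.5 CPM in ELA 1 to 5 and 104.3, 106.3, 109.4 and 95.7 CPM in control 1 to 4. Nr1h3 (LXR alpha) was at 1.86, 1.59, 2.18, 0.875 and 1.76 CPM in ELA 1 to 5 and 1.90, 1.20, 2.50 and 1.68 CPM in control 1 to 4. The log2 fold changes were -0.02 (SE 0.113) and -0.14 (SE 0.342). Abca1, which loads cholesterol onto lipid-poor apolipoproteins, was at 262.9, 130.3, 132.1, 125.1 and 126.9 CPM in ELA 1 to 5 and 174.8, 172.8, 222.1 and 114.7 CPM in control 1 to 4. ELA 1 stood far above the other ELA mice, and the log2 fold change was -0.14 with it and -0.41 without it (unadjusted p = 0.0417). Abcg1, a related exporter, was at 12.3, 9.74, 6.96, 14.96 and 9.79 CPM in ELA 1 to 5 and 13.9, 8.82, 9.86 and 9.73 CPM in control 1 to 4, a log2 fold change of 0.02 (SE 0.228).

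The numbers in the titles split each group into a pair of sets. For each of the 7 genes at an unadjusted p below 0.05, the means of ELA 1 and 2 and of ELA 3 to 5 were both above the means of control 1 and 2 and of control 3 and 4. These genes were picked from the same mice for being higher in ELA. For Cyp51, Dhcr7, Insig1, Fads1 and Fads2, whose groups did not overlap, this order was fixed in advance. For Fads1 the ELA means were 60.4 and 64.9 CPM and the control means 42.7 and 45.1 CPM, and for Dhcr7 they were 16.2 and 21.5 CPM beside 11.5 and 13.4 CPM. Each number occurs in 1 group, so no comparison within a number could be made. With counts summed over mice that share a number, 6 of the 7 genes kept an unadjusted edgeR p below 0.05, all but Fdft1. This count is not independent of how the 7 were picked.

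Other genes of the same routes were read from lists of 49 names, of which 48 had a row and 45 passed the filter. None passed the adjusted p in edgeR, and at an unadjusted p below 0.05, 6 of 45 (13.3%) were higher and 1 was lower, beside 3.56% and 2.89% of all genes tested. Cyp27a1, a mitochondrial sterol hydroxylase, averaged 14.9 ± 2.51 CPM over the ELA mice (SD, n = 5) and 9.23 ± 1.48 CPM over the controls (n = 4), a log2 fold change of 0.69 (SE 0.176, edgeR adjusted p = 0.285), with ELA 1 just inside the control range. Acat2, which joins acetyl-CoA units ahead of Hmgcs1, averaged 54.8 ± 8.35 CPM in the former and 39.6 ± 5.86 CPM in the latter group, and each ELA mouse was above each control mouse. Slc25a1, the mitochondrial citrate carrier that feeds Acly, had the opposite sign, with averages of 154.5 ± 24.8 CPM for ELA and 207.0 ± 18.3 CPM for controls. All ELA values of Slc25a1 lay below the control values, a log2 fold change of -0.42 (SE 0.145, edgeR adjusted p = 0.569). Lpcat3, Mecr, Lpin1 and Thrsp, genes of phospholipid remodelling, mitochondrial fatty acid synthesis, glyceride synthesis and lipogenic control, had log2 fold changes of 0.26, 0.33, 0.36 and 1.21. Thrsp was at most 1.42 CPM in any mouse. Ch25h, Mlxipl and Elovl3 did not pass the filter on low counts.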

How the data were processed

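The authors had RNA of 9 mice, after polyA capture, sequenced and counted by a company and deposited whole-number counts per Ensembl gene. Their processing notes name CASAVA, HISAT and HISAT2. Counter, strand option and genome build were not given in the sources used here. Of the 54532 identifiers, 98.3% have the same coordinates in GENCODE M21, and positions are given as deposited, on GRCm38 by this match. Of the 40 genes 33 match exactly, and Fads1, Fads2, Scd1, Scd2, Npc1, Abcg1 and Tm7sf2 differ in start, end or both. Groups came from the treatment labels, and 0 sample columns were unassigned. Pairs of libraries of a group gave a chi-square of 21.3 to 134.0 per degree of freedom, so none was a duplicate. edgeR 4.0.16 in R 4.3.3 was used with filterByExpr (minimum count 10), TMM, robust glmQLFit and glmQLFTest on all genes kept. DESeq2 1.42.0, the tool of the study's methods, limma-voom 3.58.1, other scalings, no filter, sums over title numbers and leaving out each mouse were alternatives. Each tool was tested on simulated data. Log2 CPM used a prior count of 2. The deposited gene length served FPKM. The 40 genes and all lists were chosen with earlier results of these data known. Values in every mouse are given for genes at an unadjusted p below 0.05, the pair with the smallest p in each role and 7 pairs of related genes. P-values over mice set the difference between the groups against the spread between these samples. Faxdc2 had no row.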

Additional observations from a re-analysis of the deposited data

Results flagged for a closer look

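Single mice stood apart from their group in 5 of the 42 groups of values examined (21 genes in ELA and in control mice), by Dixon's test at its 95% critical value, and chance gives about 1 in 20 groups. ELA 4 had the highest CPM of Elovl6 (35.4, next 16.9), Fads1 (76.6, next 62.0) and Fads2 (62.5, next 41.5), all 3 genes of fatty acid remodelling. ELA 1 had the highest CPM of Abca1 (262.9, next 132.1) and the lowest of Mvd (13.2, next 22.1). The neuron and myelin markers summed to 384.5 CPM in ELA 4, and their part in its high values was not tested.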

How the results depend on the processing

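No gene of the 40 and none of the other pathway genes passed the adjusted p under any of the 15 alternatives. Genes of the 40 that were higher at an unadjusted p below 0.05 numbered 7 in the edgeR comparison, 4 with plain library totals (Cyp51, Dhcr7, Fads1 and Fads2) and 5 to 9 without 1 mouse, and those that were lower 0 and 0 to 2. Genes with a positive log2 fold change numbered 27, 26 to 30 without 1 mouse, 24 with plain totals and 26 with summed title numbers. With plain totals the median log2 fold change over all genes was -0.0487. Over all genes, edgeR called 10, DESeq2 138, edgeR without a filter on low counts 38, with plain totals 4, with summed title numbers 3, and without 1 mouse 0 to 25. At the unadjusted p, 566 genes were higher and 459 lower, and 367 and 654 with plain totals, where the cause was not tested. Without 1 mouse, 366 to 711 genes were higher and 323 to 590 lower.
The 7 genes at an unadjusted p below 0.05 kept a positive log2 fold change in all 15 alternatives. They were picked from the same mice for being higher in ELA, so this is not independent of the choice. For Cyp51, Dhcr7, Insig1, Fads1 and Fads2, whose groups did not overlap, leaving out 1 mouse left little room for a change of sign. Abcg1 had a log2 fold change of -0.0314 with plain totals and -0.12 to 0.18 without 1 mouse. Among the genes with values given in every mouse, the sign also changed without single mice for Srebf1 (-0.0013 to 0.18) and Elovl5 (-0.11 to 0.0006). It did so too for Nr1h2 (-0.0683 to 0.0265), Nr1h3 (-0.30 to 0.0516) and Abca1 (-0.41 to 0.012). Of the remaining genes, it changed for Mvk (-0.04 to 0.17), Pmvk (-0.13 to 0.19), Ggps1 (-0.15 to 0.0015), Sqle (-0.04 to 0.17) and Nsdhl (-0.13 to 0.06). Others were Hsd17b7 (-0.35 to 0.09), Ebp (-0.11 to 0.07), Scap (-0.12 to 0.01) and Vldlr (-0.26 to 0.11), whose sign changed as well. The same held, in a test added after seeing the data, for the log2 ratio differences of Fads1 to Fads2 (-0.0414 to 0.0708), Nr1h3 to Nr1h2 (-0.32 to 0.0344) and Abca1 to Abcg1 (-0.31 to 0.0259). No paired analysis was possible because ELA and control mice share no title numbers that could pair them, and numbers in label order only name the mice.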
